A study of Mus musculus with 12 samples.

Results

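B1 elements are the rodent counterpart of the primate Alu repeats, and both belong to the short interspersed elements, or SINEs. B1 and its relatives were taken here as every repeat name that the deposited annotation places in class SINE and family Alu, which gave 16 of 18538 names and 16 of the 38 SINE names. All 16 passed the filter on low counts and were tested. RNA was measured in C57BL/6 mouse embryos at the 2-cell stage, 1.5 days after fertilization, in 6 libraries per genotype. Kdm4a encodes a demethylase of histone H3 lysines. Wild-type oocytes gave the group called WT (m+/p-) and Kdm4a knockout oocytes the group called KO (m-/p-), and the sperm was Kdm4a knockout for both, so neither group had a working paternal allele. The comparison was therefore of the maternal allele with whatever the oocyte had stored, and any other difference between the oocytes or their donors cannot be told apart from it. The number of embryos per library and of females that gave oocytes was not stated by the labels, and p-values measure only the spread between these libraries.

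B1 elements descend from the gene for 7SL RNA, the RNA of the signal recognition particle, which brings ribosomes to the endoplasmic reticulum. An intact copy carries an internal promoter for RNA polymerase III, encodes no protein and is copied into new sites by the proteins of LINE-1. Most copies sit in introns, untranslated regions and intergenic DNA, where RNA polymerase II can read through them as part of other transcripts, and counts by name do not separate these from transcripts of their own. The names record descent. B1_Mm, B1_Mus1 and B1_Mus2 are B1 of the mouse lineage, the 4 B1_Mur names date to ancestors of the mouse and rat family, the 3 B1F names are fossil B1, the 5 PB1 names are proto-B1, and FAM is the fossil Alu monomer.

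Each library gave between 7952526 and 18902360 counts over all repeats. The rarest member, FAM, had between 618 and 1467 counts in a library, and the most abundant, B1_Mus1, between 63002 and 182418. The tables hold repeat names and no genes, so the level of Kdm4a was not analysed here. MERVL-int, the retrovirus that marks 2-cell embryos, took from 4.42% to 7.004% of all counts in the WT libraries and from 2.48% to 4.27% in the KO libraries, so this marker was present in all 12 and lower in KO without overlap. KO replicate 6 stood apart for B1 and its relatives, with the highest level in its group for 14 of the 16 members. Some of the results are also given without it. WT replicate 2 and KO replicate 5, the shallowest library of each group, were low in 7SL RNA, at 0.0553% and 0.167% of all counts against 0.302% or more in the other 10 libraries.

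B1 and its relatives took up a larger part of the repeat RNA in KO embryos. Their summed share of all counts ranged from 4.51% to 5.27% in WT with a median of 4.67%, and from 5.31% to 7.92% in KO with a median of 5.76%. Every KO library lay above every WT library. The WT mean was 4.75% ± 0.287 and the KO mean 6.12% ± 0.984 (SD, n = 6 each), and the difference of 1.37 percentage points (95% interval 0.58 to 2.28) gave p = 0.0021645 by exact permutation, the lowest value possible for 6 libraries against 6. The adjusted p over 16 shares and ratios was 0.0173. Without KO replicate 6 the difference was 1.01 percentage points. A higher share was not particular to the family. The whole SINE class held 13.9% ± 0.958 of all counts in WT and 18.8% ± 2.48 in KO. Simple repeats held 6.27% ± 0.377 and 7.77% ± 0.654 (SD, n = 6 each). Both also lay higher in KO without overlap. The share of MERVL-int moved with the genotype in the opposite direction. A further total left out 5 names, MERVL-int, MERVL_2A-int, MT2_Mm, ERVL-int and ERVL-B4-int, of which the last named are ERVL elements other than MERVL. Of that total the family's share was 5.74% ± 0.375 in WT and 6.82% ± 0.986 in KO, and the call was lost (exact permutation p = 0.0108, adjusted p = 0.0866).

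A share of all counts moves when any other class moves. The LTR class, the retrotransposons with long terminal repeats to which MERVL belongs, held 55.9% ± 2.05 of WT counts and 47.7% ± 2.88 of KO counts (SD, 6 libraries each), with no overlap between the groups. Among counts outside the LTR class, B1 and its relatives ranged from 10.3% to 11.7% in WT with a median of 10.6%, and from 10.04% to 14.2% in KO with a median of 11.4%. The groups overlapped, and WT replicate 6 lay above 4 of the 6 KO libraries. The means were 10.8% ± 0.541 and 11.7% ± 1.41 (n = 6 each, exact permutation p = 0.175, adjusted p = 0.277). The difference of 0.89 percentage points had a 95% interval from -0.36 to 2.25, and it was 0.39 without KO replicate 6. No difference in the share outside the LTR class was detected.

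Within the SINE class, the part taken by B1 and its relatives had a lower mean in KO and the groups overlapped. It ranged from 32.4% to 36.3% of SINE counts in WT with a median of 33.9%, and from 29.5% to 34.4% in KO with a median of 32.9%. The lowest value, 29.5%, was that of KO replicate 3, and the highest, 36.3%, that of WT replicate 2. The means of 34.3% ± 1.42 and 32.6% ± 1.83 did not differ beyond the spread between libraries (n = 6 each, exact permutation p = 0.117, adjusted p = 0.277, 95% interval of the difference -4.02 to 0.36 percentage points).

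**Figure D1:**
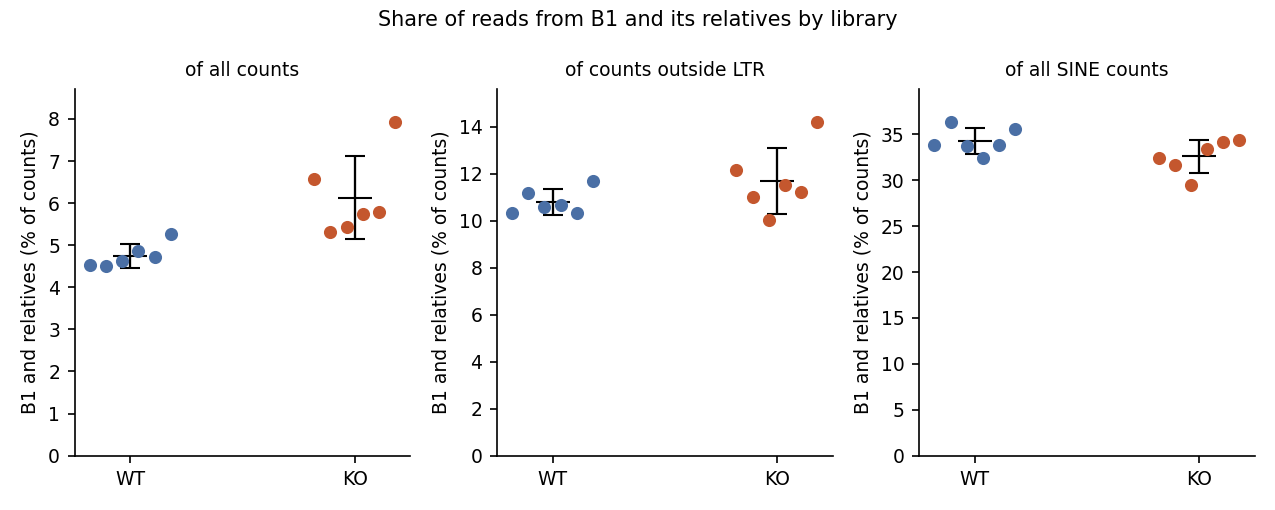
Share of counts from B1 and its relatives in each library, as a percentage of all counts, of counts outside the LTR class and of SINE counts. Points are libraries (6 per group), bars are means with SD; the KO libraries lie above all WT libraries in the first panel only, where they run from 5.31% to 7.92%.

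Relative to the typical repeat, no single member passed the test. The test was edgeR's quasi-likelihood test over 3312 repeats, on counts scaled by TMM, a method that sets libraries level on the bulk of the repeats. It called 0 of the 16 members in either direction, against 0.151% of all tested repeats higher and 1.27% lower. DESeq2 also called 0 members, beside 1.27% of all tested repeats higher and 3.83% lower. Limma-voom with quality weights called 0 members, beside 0.242% higher and 1.9% lower. These shares of 16 names come to less than 1 member each, so a count of 0 does not set the family apart. At an unadjusted p under 0.05, edgeR had 0 members higher and 1 lower, beside 5.5% and 7.91% of all tested repeats. Log2 fold changes were positive for 13 members and negative for 3, beside 1696 of 3312 positive over all tested repeats. Of the 22 SINE names outside the family, 20 were positive. The family's median was 0.05, beside a median of 0.01 over all repeats. Its log2 fold changes ran from -0.25 to 0.14, and edgeR adjusted p-values from 0.332 to 0.986. In normalised CPM (counts scaled to a common library size) the groups overlapped for all 16 members. Over all tested repeats KO lay above WT without overlap in 0.725% and below it in 1.39%, so 0 of 16 is near the background.

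The B1 names of the mouse lineage had overlapping levels in both groups, with log2 fold changes close to 0. B1_Mus1 ranged from 7474 to 9518 normalised CPM in WT with a median of 8200, and from 7354 to 10092 in KO with a median of 7851. The KO range contained the WT range. The WT mean of 8265 ± 749 and the KO mean of 8213 ± 1005 (SD, n = 6 each) gave a log2 fold change near 0, at -0.01 ± 0.09 (SE, edgeR adjusted p = 0.986).

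B1_Mus2 ranged from 5200 to 7188 normalised CPM in WT with a median of 6468, and from 5304 to 7911 in KO with a median of 5875. Of the KO libraries, 1 lay above the WT median, namely KO replicate 6. The log2 fold change was -0.04 (standard error 0.11, edgeR adjusted p = 0.937). B1_Mm ranged from 2940 to 3907 normalised CPM in WT with a median of 3264, and from 2956 to 4324 in KO with a median of 3345. Here 4 of 6 KO libraries lay above the WT median, and the log2 fold change was 0.03 (standard error 0.10, edgeR adjusted p = 0.952). KO replicate 6 had the highest value of its group for all 3 names, and without it their log2 fold changes were -0.08, -0.12 and -0.05 for B1_Mus1, B1_Mus2 and B1_Mm.

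The largest positive value of the family belonged to B1_Mur1, a B1 name shared by mouse and rat ancestors. It ranged from 3482 to 4413 normalised CPM in WT with a median of 3745, and from 3900 to 4758 in KO with a median of 4112. All 6 KO libraries lay above the WT median, but WT replicate 2, at 4413, lay above 4 of them. This gave a log2 fold change estimate of 0.14 ± 0.08 (SE, edgeR adjusted p = 0.469). The other B1_Mur names had log2 fold changes of 0.11 (B1_Mur3), 0.06 (B1_Mur4) and 0.01 (B1_Mur2).

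The fossil B1 names B1F, B1F2 and B1F1 had log2 fold changes of 0.11, 0.09 and 0.05. Those of the proto-B1 names PB1D7, PB1, PB1D10, PB1D9 and PB1D11 were 0.09, 0.07, 0.05, 0.05 and 0.02. In B1F, B1F2 and PB1D7 all 6 KO libraries lay above the WT median, as in B1_Mur1. None of these 8 names passed the edgeR test, with adjusted p-values from 0.569 to 0.961.

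FAM, the rarest member, had the largest negative value. It ranged from 74.6 to 104 normalised CPM in WT with a median of 81.6, and from 59.9 to 84.3 in KO with a median of 71.4. Only KO replicate 3 lay above the WT median. The WT mean was 86.3 ± 11.8 and the KO mean 72.6 ± 8.71 (SD, n = 6 each). The estimate from edgeR, adjusted p = 0.332, was -0.25 on the log2 scale with a standard error of 0.11, and this was the member with an unadjusted p under 0.05. As a part of all SINE counts, FAM stood at 0.0558% ± 0.00613 in WT and 0.0434% ± 0.00530 in KO, with 0 of 6 KO libraries above the WT median (n = 6 each, exact permutation p = 0.00433, adjusted p = 0.123 over 38 SINE names). The groups still overlapped. The mean part of the SINE counts was lower in KO for 15 of the 16 members, a count that was not made for the other 22 SINE names. B1_Mus1, the most abundant, stood at 5.34% ± 0.243 in WT and 4.89% ± 0.319 in KO, with 1 of 6 KO libraries above the WT median (n = 6 each, exact permutation p = 0.0195, adjusted p = 0.247). It and FAM were the 2 members with an unadjusted p under 0.05, and none of the 38 SINE names passed the correction (0.0% called in either direction).

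Scaling by total counts alone, which treats the summed repeat RNA of all libraries as equal, gave another picture. Under it edgeR called 12 of the 16 members higher and 0 lower, and the split over all repeats turned from 5 higher and 42 lower to 357 higher and 33 lower, so 10.8% of all tested repeats were called higher and 0.996% lower. Among the 555 repeats whose mean reached 100 normalised CPM, a level that all members but FAM exceed and that was chosen after the values were seen, 37.5% were called higher. Of the 22 SINE names outside the family, 17 were called higher. The median log2 fold change over all repeats moved by 0.31, from 0.01 to 0.32, and that of the family by 0.32, from 0.05 to 0.37. The family's median thus lay 0.04 above that of all repeats under TMM and 0.05 above it under total-count scaling. Without KO replicate 6 the same test called 11 members higher, beside 7.18% of all tested repeats. Over all single libraries left out the count lay between 10 and 12, beside 6.75% to 11.5%.

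The members called under total-count scaling were the B1_Mur, B1F and PB1 names, all 12 of them. The largest log2 fold change by that measure was 0.46 for B1_Mur1 (standard error 0.09, edgeR adjusted p = 0.00762). Those that did not pass were B1_Mus1, B1_Mus2, B1_Mm and FAM, whose log2 values were 0.31, 0.29, 0.36 and 0.07 (adjusted p by edgeR 0.0730, 0.133, 0.0628 and 0.754). B1_Mm thus had nearly the same fold change as PB1D10 (0.38) with a larger standard error, 0.12 against 0.08. As a plain share of all counts, 8 of the 16 members had every KO library above every WT library, beside 5.8% of all tested repeats and 20.9% of the 555 abundant ones. In 15 of the 16 all 6 KO libraries lay above the WT median. That count was not made over all tested repeats, so it does not set the family apart. The median log2 fold change over all tested repeats was itself 0.32 under total-count scaling.

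TMM factors, by which the library sizes were multiplied, ran from 0.767 to 0.977 in WT and from 0.978 to 1.26 in KO, so the scaling itself differed between the groups without overlap.

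**Figure D2:**
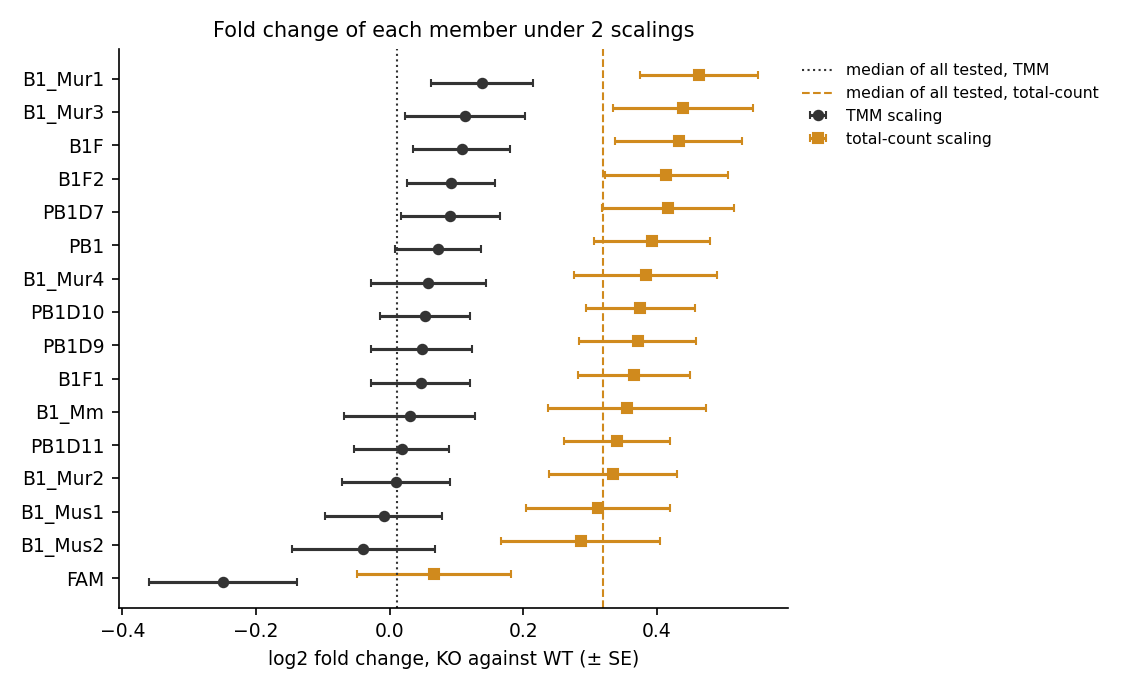
Log2 fold change of each of the 16 members, KO against WT, with its standard error (edgeR, n = 6 each), under TMM and total-count scaling, beside the median of all 3312 tested repeats. Members sit close to the median of all repeats under either scaling (0.01 and 0.32), with FAM lowest at -0.25 and 0.07.

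The makeup of the family needs no scaling between libraries, and none of the 4 differences in it passed the correction. The 3 B1 names of the mouse lineage held 32.5% to 35.5% of the family's counts in WT with a median of 33.3%, and 29.6% to 34.9% in KO with a median of 32.4%. The lowest value, 29.6%, was that of KO replicate 5, the shallowest library. The means were 33.8% ± 1.38 and 32.5% ± 1.83 (n = 6 each, exact permutation p = 0.190, adjusted p = 0.277).

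The 4 B1_Mur names held 25.0% to 26.1% of the family's counts in WT with a median of 25.3%, and 25.5% to 26.9% in KO with a median of 25.98%. All 6 KO libraries lay above the WT median, yet WT replicate 3, at 26.1%, lay above 4 of them. The means of 25.5% ± 0.426 and 26.1% ± 0.475 differed by 0.65 percentage points (95% interval 0.06 to 1.24), which did not pass the correction (n = 6 each, exact permutation p = 0.0281, adjusted p = 0.113). B1F names held 13.9% ± 0.512 in WT and 14.4% ± 0.754 in KO, and PB1 names 26.7% ± 0.905 and 26.9% ± 0.929 (n = 6 each, exact permutation adjusted p = 0.346 and 0.757).

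The part of the family that single members held varied from library to library by more than the sampling noise of independent reads. Between libraries of the same group, chi-square per degree of freedom over the family's names ran from 23.0 to 376 (30 pairs). Between a WT and a KO library it ran from 26.5 to 387 (36 pairs). Over the 12 libraries the coefficient of variation of a member's share of the family was lowest for B1_Mur2, at 2.43%, and 7.61% for B1F1, the highest outside FAM. FAM, with 618 to 1467 counts in a library, stood at 15.5%, and its mean share of the family was 0.162% in WT and 0.134% in KO. Members of similar sequence can share reads, so their separate levels are uncertain.

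**Figure D3:**
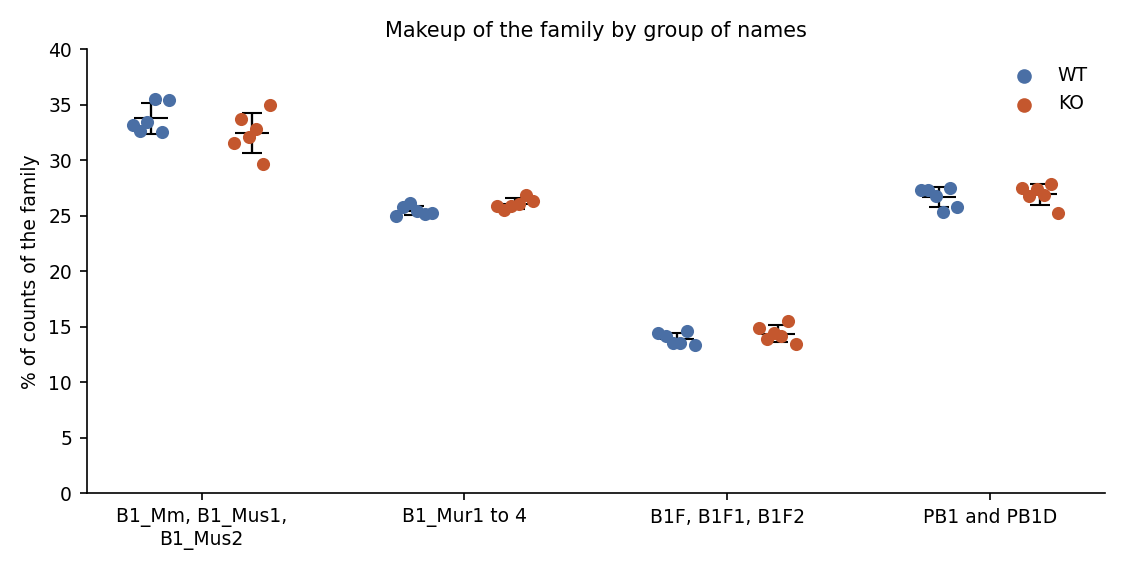
Percentage of the family's counts held by the mouse-lineage B1 names, the B1_Mur, the B1F and the PB1 names in each library. Points are libraries (6 WT and 6 KO), bars are means with SD; the groups overlap throughout, and the B1_Mur names have the KO mean at 26.1% against 25.5%.

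Set against other repeats that are likewise scattered through the genome, the level of B1 and its relatives in the same library did not differ between the groups beyond the spread in any of 6 comparisons. B2 is the other abundant rodent SINE and descends from a transfer RNA. The log2 ratio of the family to B2 ranged from -0.35 to 0.05 in WT with a median of -0.15, and from -0.59 to -0.08 in KO with a median of -0.25. The KO libraries reached lower, with 1 of 6 above the WT median. The difference of -0.15 had a 95% interval from -0.36 to 0.06 (n = 6 each, exact permutation p = 0.145, adjusted p = 0.277), so B2 and B1 were not shown to differ in their response.

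For the remaining SINE families the differences in log2 ratio were smaller. They were -0.07 for B4, a rodent SINE that joins parts of ID and B1, -0.03 for ID, a SINE related to the BC1 RNA, and -0.09 for MIR, an ancient mammalian SINE (n = 6 each, exact permutation adjusted p = 0.208, 0.647 and 0.277). Their 95% intervals were -0.14 to 0.00475, -0.12 to 0.07 and -0.20 to 0.02, so a change of the family against these SINEs by more than about 0.20 lay outside the intervals. In each of the 4 SINE families, 1 KO library lay above the WT median.

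Against LINE-1, whose proteins copy SINEs, the difference in log2 ratio was 0.20 (95% interval -0.07 to 0.48, n = 6 each, exact permutation adjusted p = 0.277). Against DNA transposons the difference was 0.02 (95% interval -0.13 to 0.18, exact permutation adjusted p = 0.882). The LINE-1 difference fell to 0.10 without KO replicate 6, and that for DNA transposons turned to -0.04.

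Structural RNAs served as a second kind of yardstick. 4.5SRNA is the annotation's name for a small RNA made by RNA polymerase III, and the rodent RNA of that name is itself related to B1. The log2 ratio of the family to 4.5SRNA ranged from 8.08 to 8.49 in WT with a median of 8.36, and from 8.49 to 8.77 in KO with a median of 8.56. Every KO library lay above every WT library, although the lowest KO library (8.488) and the highest WT library (8.485) were close together. The means of 8.33 ± 0.143 and 8.58 ± 0.110 differed by 0.25 (95% interval 0.10 to 0.42, n = 6 each, exact permutation p = 0.0021645, adjusted p = 0.0173), and without KO replicate 6 by 0.21. The share of 4.5SRNA itself in all counts was 0.0148% ± 0.00140 in WT and 0.0159% ± 0.00155 in KO, with overlapping groups. That of the whole SINE class was 13.9% in WT and 18.8% in KO. No other SINE family was set against 4.5SRNA directly. The family's mean log2 ratios to B2, B4, ID and MIR were lower in KO, by -0.15, -0.07, -0.03 and -0.09, none passing its test. On these means the other SINE families rose against 4.5SRNA by more than the family did. The higher ratio is thus not shown to be particular to B1 and its relatives.

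7SL RNA, from which B1 descends, gave no usable yardstick. The log2 ratio of the family to 7SLRNA ranged from 2.74 to 6.35 in WT with a median of 3.28, and from 3.41 to 5.11 in KO with a median of 3.50. The highest values were those of WT replicate 2 and KO replicate 5, in which 7SLRNA was scarce. The difference of 0.02 had a 95% interval from -1.34 to 1.23 (n = 6 each, exact permutation p = 0.978). Against ribosomal RNA repeats the difference in log2 ratio was 0.41 (95% interval 0.07 to 0.76), which did not pass the correction (n = 6 each, exact permutation p = 0.0260, adjusted p = 0.113). With single libraries left out it passed only without KO replicate 3 (0.51, exact permutation adjusted p = 0.0462). The RNA had been depleted of ribosomal RNA, so these counts are what depletion left and make a weak yardstick.

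**Figure D4:**
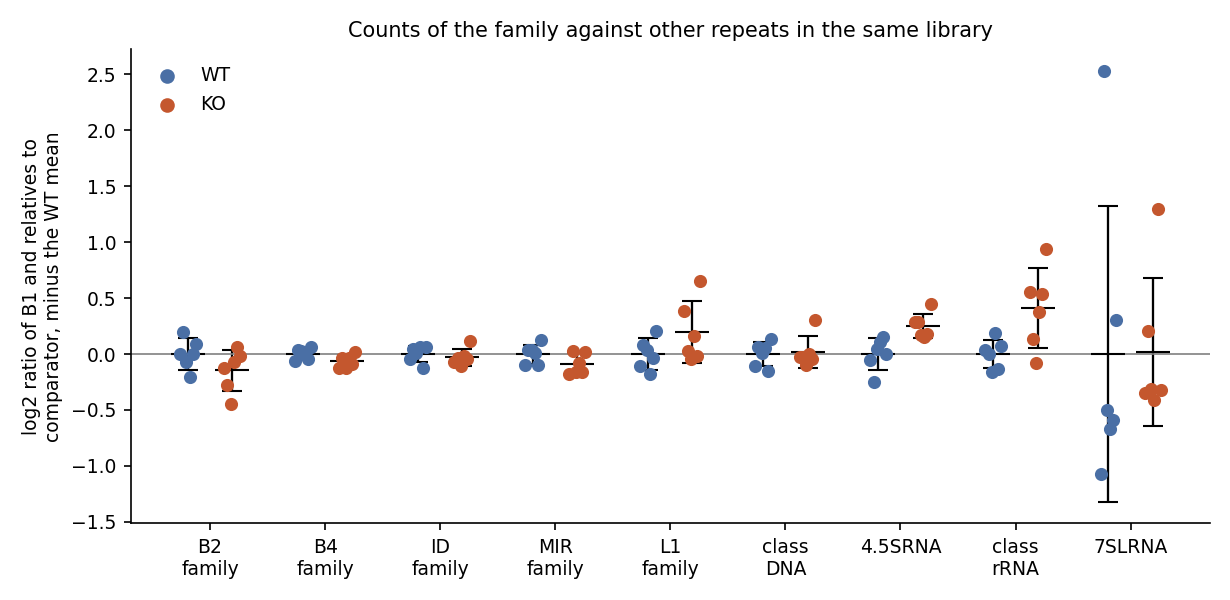
Log2 ratio of the counts of B1 and its relatives to 9 other repeats or classes in the same library, minus the WT mean of that ratio. Points are libraries (6 per group), bars are means with SD; KO lies above WT without overlap against 4.5SRNA, and the widest spread is that against 7SLRNA, where WT replicate 2 is highest.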

How the data were processed

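Total RNA of 12 libraries was depleted of ribosomal RNA and made into stranded libraries, per the labels' protocols. The deposited values are estimated counts per repeat name, with class and family, and all were whole numbers. The submitters' processing notes name mm10, Trimmomatic 0.32 and edgeR without a role. Table names mention both unique and fractional counting, without saying how reads with several matches were assigned. Aligner, repeat annotation and any use of strand: not given in the sources used here.

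Groups and replicate numbers came from the sample titles; table names number the replicates in reverse, so replicate 6 here is 1 there. The members and lists were chosen with earlier results of these data known. All rows kept by filterByExpr (3312) entered the test of edgeR 4.0.16 under R 4.3.3 (TMM, genotype as the only term, quasi-likelihood F test, Benjamini-Hochberg, threshold 0.05), with limma 3.58.1 and DESeq2 1.42.0 as alternatives. Standard errors came from the F statistic. Shares and log2 ratios per library were compared by exact two-sided permutation tests over 924 regroupings (scipy 1.17.1), adjusted over 16 results; 95% intervals hold the shifts that this test does not reject. Shares of single members were adjusted over all 38 SINE names. Every member is named. Values for each library are summarised for the mouse-lineage B1 names and for the members with the highest and lowest fold change. The edgeR test was tried on simulated data with known changes and made 0 false calls. It recovered 3.51% of log2 changes of 0.3, 9.38% of those of 0.6 and 36.2% of those of 1. Among repeats at 100 CPM or more these were 12.5% of 8, 40% of 5 and 100% of 11. Small changes of a member can therefore be missed. No pair of replicates agreed within sampling noise (lowest chi-square per degree of freedom 29.3 over 30 pairs). Without molecular identifiers, reads cannot be taken as independent molecules.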

Additional observations from a re-analysis of the deposited data

Results flagged for a closer look

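In 6 of 64 sets of 6 libraries (each share, ratio or member's level in each group), 1 library lay far from the other 5; chance gives about 1 in 20. In 5 of the 6 it was KO replicate 6. Its log2 ratio of B1 and relatives to DNA transposons was 2.22, against 1.83 to 1.92 in the other KO libraries. Its normalised CPM was 4910 for B1_Mur4 (others 3544 to 3939), 4226 for B1_Mur2 (3280 to 3626), 2646 for PB1D7 (2144 to 2320) and 834 for PB1 (727 to 767). These 4 levels come from 1 library and 1 family, so they are not separate events. KO replicate 5 was set apart by its log2 ratio of B1 and relatives to 7SLRNA, 5.11 against 3.41 to 4.02 in the other KO libraries. WT replicate 2, at 6.35, was the highest of its group by the same ratio but did not reach the limit used.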

How the results depend on the processing

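The result that depended most on the processing was the number of members called higher, which was 0 under TMM and 12 under total-count scaling; every other planned setting gave 0 higher and 0 lower. With total-count scaling, the count was 14 with a replicate block, 10 without WT replicate 2 and KO replicate 5, and 10 to 12 with a single library left out, beside 9.9%, 6.54% and 6.75% to 11.5% of all tested repeats (settings chosen after seeing the data). The higher share of all counts and the higher ratio to 4.5SRNA kept their direction in every setting run. Both passed with each single library left out (1.01 to 1.53 percentage points and 0.20 to 0.28, exact permutation adjusted p = 0.0346 throughout). KO lay above WT without overlap in both, so each of these passes was fixed in advance at the smallest exact permutation p possible, 0.00433. Both results did not pass without WT replicate 2 and KO replicate 5 (1.39 and 0.22, exact permutation adjusted p = 0.0635). With the replicate block they did not pass either (1.37 and 0.25, adjusted p = 0.100). In both settings the unadjusted p, 0.00794 and 0.0312, was the smallest the design allows. Neither the passes nor these failures therefore say anything about stability. Without the MERVL, MT2_Mm and ERVL names in the total the difference in share was 1.09 (exact permutation adjusted p = 0.0866). The share of B1_Mur names in the family (0.49 to 0.78) passed only without WT replicate 3, and the ratio to ribosomal RNA (0.30 to 0.51) only without KO replicate 3. With single libraries left out, values near 0 changed sign: the PB1 share of the family (-0.0087 to 0.60), the ratios to DNA transposons (-0.039 to 0.045) and 7SLRNA (-0.24 to 0.52), and the log2 fold changes of B1_Mus2 (-0.12 to 0.0034), B1_Mus1 (-0.076 to 0.037), B1_Mur4 (-0.011 to 0.091), B1_Mur2 (-0.044 to 0.048), B1_Mm (-0.048 to 0.080) and PB1D11 (-0.012 to 0.068).

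Log2 fold changes also changed sign under total-count scaling for B1_Mus2 (0.29), B1_Mus1 (0.31) and FAM (0.066). B1_Mus1 was 0.024 with upper quartile scaling, 0.0043 with no filter, 0.0072 with a mean of at least 10 CPM and 0.035 without WT replicate 2 and KO replicate 5, where B1_Mus2 was 0.014. B1_Mur2 was -0.00020 with RLE scaling, -0.00018 with DESeq2, -0.0026 without the 20 most abundant names and -0.025 without the LTR class, where B1_Mm was -0.0046 and PB1D11 -0.016. In a fit of SINE names alone B1F1, B1_Mur4, B1_Mur2, PB1D9, PB1, B1_Mm, PB1D10 and PB1D11 were -0.032, -0.024, -0.071, -0.030, -0.0081, -0.051, -0.025 and -0.059. As a share of SINE counts without B2, B1F, B1_Mur3, PB1D7, B1F2 and PB1 were higher in KO by 0.10, 0.075, 0.035, 0.027 and 0.0018 percentage points. None of these passed its test, and the cause was not tested. The labels do not state that replicate numbers pair the libraries. Same-numbered deviations correlated at -0.06 to 0.19, and 1 of 6 WT libraries correlated best with its own number. Such correlations cannot exclude pairing. Beyond the settings named, the replicate block changed no call.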
